A study of Mus musculus with 45 samples.

Results

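In neuroepithelial organoids the transcript of E-cadherin (Cdh1) stayed near its day 2 level for 30 h without retinoic acid (RA) and then declined. With RA it was lower from 18 h on, and at 30 h every library but replicate 2 had come down to its later level. N-cadherin (Cdh2) went the other way from 30 h, with an RA-to-untreated difference of 3.46-fold at 30 h and 1.27-fold at 78 h. At 8 h its RA libraries lay below the untreated ones. Epcam was lower with RA at all 7 time points after day 2. Cadherin-6 (Cdh6) showed the highest early RA difference of these genes, 24.4-fold at 30 h, and P-cadherin (Cdh3) and cadherin-11 (Cdh11) were 2.21-fold and 3.52-fold higher with RA at 78 h.

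The genes described are the classical cadherins Cdh1, Cdh2, Cdh3, Cdh4, Cdh6, Cdh8 and Cdh11 together with Epcam, 8 of the 54532 genes in the count table. They were listed by symbol, with earlier results of these data known, and found through their Ensembl identifiers, and the rule itself uses no measured value. RNA was sequenced from organoids grown clonally in Matrigel from R1, an established line of wild-type mouse embryonic stem cells. By their labels all groups share this 1 parental line and the same culture and differ in RA and in time. All-trans RA was given at day 2 at 250 nM, or left out, and organoids were collected at day 2 before treatment, 8 and 18 h after it, and then every 12 h from 30 h to 78 h. Each of the 15 conditions has 3 libraries, which the study calls biological replicates. The dose and hours follow the titles and the design text, since a protocol label gives the dose in µM and slightly different late hours.

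Classical cadherins are calcium-dependent adhesion proteins whose outer parts bind partners on the next cell and whose tails bind catenins, which link them to actin. E-, N-, P- and R-cadherin (Cdh1, Cdh2, Cdh3 and Cdh4) are of type I, and Cdh6, Cdh8 and Cdh11 are of type II, with a different adhesive interface. Epcam is an epithelial cell adhesion molecule of another family, expressed in embryonic stem cells and simple epithelia. When the neural plate forms, neural cells lose E-cadherin and gain N-cadherin, a change known as the cadherin switch, and the same exchange accompanies many epithelial-to-mesenchymal transitions.

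In the GENCODE M21 annotation of GRCm38, Cdh1 (ENSMUSG00000000303) lies on the plus strand at chr8:106603351-106670246. Cdh3 (ENSMUSG00000061048) lies on the same strand at chr8:106510891-106557297 and ends 46053 bases before Cdh1 starts. Cdh11 (ENSMUSG00000031673) at chr8:102632095-102785642 and Cdh8 (ENSMUSG00000036510) at chr8:99024471-99416471 are on the minus strand of the same chromosome. Cdh4 (ENSMUSG00000000305) is at chr2:179442431-179899373 on the plus strand, Cdh6 (ENSMUSG00000039385) at chr15:13028701-13173675 on the minus strand and Epcam (ENSMUSG00000045394) at chr17:87635979-87651129 on the plus strand. Counts are of exonic reads, over 4574 exon bases for Cdh1, 8066 for Cdh2, 4384 for Cdh3 and 2195 for Epcam. The exons of Cdh8 overlapped 1 other gene, on the opposite strand, with a highest count of 0, and no exon of the other members overlapped another gene.

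The sequences upstream of Epcam and Cdh6 are shown because Epcam was lower with RA at every hour and Cdh6 had the highest early RA difference, and because Zeb and Snail repressors, described further on, are known to bind CAGGTG E-boxes in epithelial gene promoters. RefSeq start sites on GRCm38.p6 were matched for 3 members, Epcam, Cdh6 and Cdh8. The 250 bases before each start site are printed 5′ to 3′ on the gene's own strand, from chr17:87635729-87635978 for Epcam on the plus strand and from chr15:13173676-13173925 for Cdh6 on the minus strand, with CAGGTG in either orientation in capitals.
Epcam: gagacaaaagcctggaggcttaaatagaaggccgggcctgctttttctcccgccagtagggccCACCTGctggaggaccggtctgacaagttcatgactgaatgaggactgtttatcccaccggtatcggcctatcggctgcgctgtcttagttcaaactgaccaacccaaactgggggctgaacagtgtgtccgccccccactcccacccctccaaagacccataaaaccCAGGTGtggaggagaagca
Cdh6: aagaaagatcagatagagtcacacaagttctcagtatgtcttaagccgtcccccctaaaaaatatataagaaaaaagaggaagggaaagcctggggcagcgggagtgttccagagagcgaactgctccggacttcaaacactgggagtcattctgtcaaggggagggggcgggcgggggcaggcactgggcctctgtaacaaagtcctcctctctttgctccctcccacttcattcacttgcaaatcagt
Epcam held the motif at 2 places, with first bases 187 and 19 bases before the start site. Cdh6 and Cdh8 held it at 0 places in their windows. Of 32851 such windows over all genes, 17.2% held CAGGTG on either strand. AGGTCA, a half-site of nuclear receptors, was in none of these 3 windows and in 4607 of the 32851, counted on both strands, and both motifs share the letters AGGT. A match is a description of the letters and no match says nothing of a factor.

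The libraries held 17298632 to 39688686 counts, with a median of 25923745. Levels are given in CPM, the counts of a gene relative to the library's total, scaled by edgeR's TMM factors over the 45 libraries. Marker sums of neural progenitor genes (Sox1, Pax6 and 6 others) ranged from 488 to 508 CPM at day 2 and from 1075 to 1458 CPM over the 6 libraries at 78 h, and all listed progenitor markers were detected in each group. In 6 libraries, RA 8 h replicate 3, the 3 untreated 30 h libraries and RA 30 h replicates 1 and 3, the mean of 4 Y-linked genes was 1.22 to 3.73 CPM, against 22.6 to 89.9 CPM in the other 39, and whether the cells of these 6 libraries differ from the rest is not known. RA 30 h replicate 2 also had a summed level of 8 non-neural epithelial genes (Krt8, Krt18, Krt19, Krt7, Trp63, Gata3, Tfap2a and Tfap2c) of 236 CPM, against 57.8 and 54.8 CPM in RA 30 h replicates 1 and 3. The part these library differences have in the results at 8 and 30 h was not tested, so for several members the values at 8 h are also given without RA replicate 3 and those at 30 h without RA replicate 2. The other genes named at these hours are given with all libraries.

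**Figure D1:**
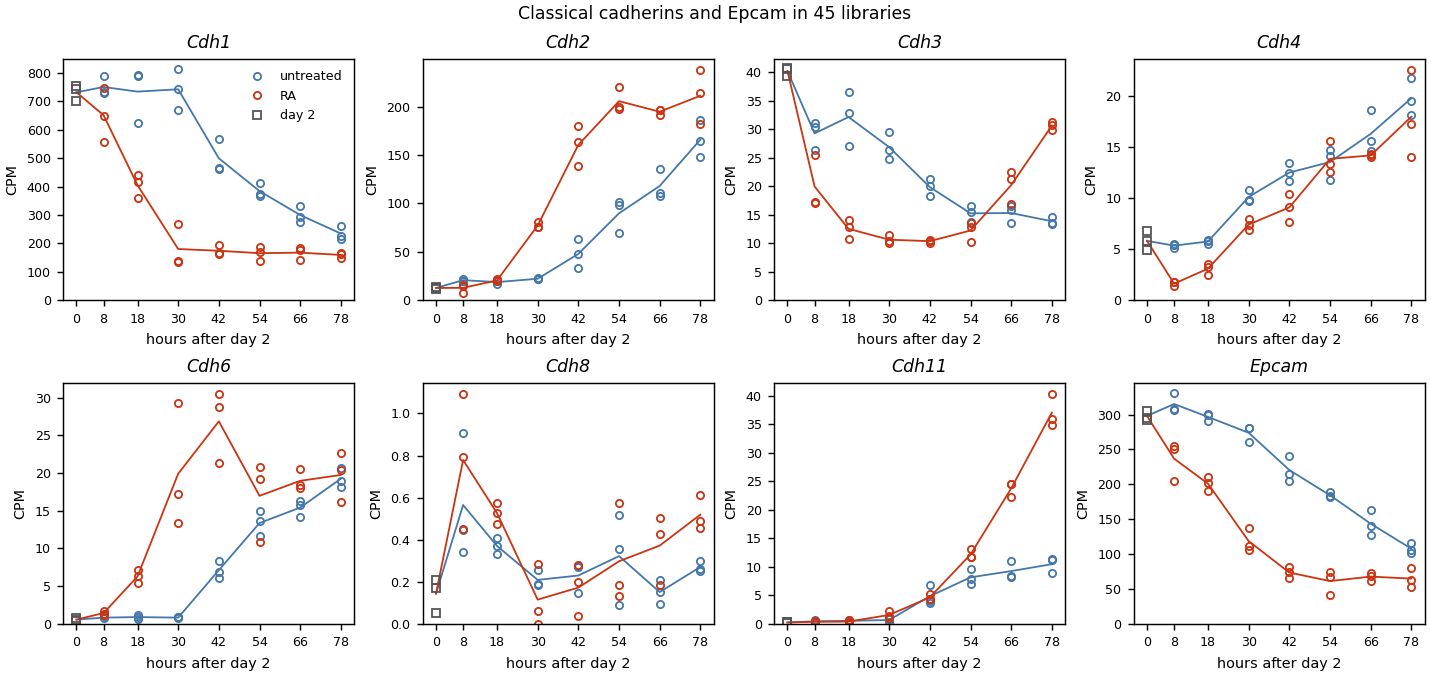
CPM of the 8 members (vertical axes from 0) against hours after day 2, with 1 symbol a library, squares for day 2, blue circles for untreated and red circles for RA, and lines through the means of 3 libraries. Cdh1 and Epcam decline earlier with RA, and Cdh6 climbs earlier. Cdh2 is lower with RA at 8 h and higher from 30 h. Cdh3 and Cdh11 end highest with RA, at 30.6 and 37.1 CPM.

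A gene is called below where edgeR's quasi-likelihood test, fitted on the 6 libraries of a comparison, gave a change of more than 1 in either direction on the log2 scale with an adjusted p under 0.01. Against untreated organoids of the same hour, RA called 1 of the 8 members at 8 h, when 1.80% of all genes tested were called. It called 2 at 18 h, against 10.9% of all genes, and 5 at 30 h, against 8.45%. At 42 h 4 members were called, against 12.5%, and at 54 h 3, against 13.2%. At 66 h 2 were called, against 11.5%, and at 78 h 2, against 11.7%. With all libraries the count was highest at 30 h, with Cdh1, Cdh3 and Epcam lower and Cdh2 and Cdh6 higher. With 1 library left out, 4 to 5 members were called at 30 h and also at 42 h, so these hours do not stand apart. The median log2 difference of the 7 members tested at 30 h was -0.46, beside 0.04 over all genes tested. Cdh8 and Cdh11 passed the filter on low counts in 3 and 6 of the 7 comparisons. Over all genes, 285 were called at 8 h and 833 without RA 8 h replicate 3, and 1406 at 30 h and 2272 without RA 30 h replicate 2, and leaving out other libraries gave as few as 80 and 616.

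Per kilobase of exon Cdh1 had the highest day 2 level of the 8 members, 160 ± 6.07 CPM per kb (SD, n = 3), followed by Epcam at 136 ± 2.98. In CPM, Cdh1 was at 753, 742 and 700 CPM in the day 2 libraries. Untreated organoids had 792, 623 and 787 CPM at 18 h and 744, 815 and 669 CPM at 30 h, within or around the day 2 range. RA-treated organoids had 360, 440 and 415 CPM at 18 h and 137, 269 and 134 CPM at 30 h, below every untreated library of the same hour. In bulk RNA, fewer cells with a transcript and less of it per cell cannot be told apart.

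The RA difference of Cdh1 was -0.85 ± 0.09 (SE) on the log2 scale at 18 h (edgeR adjusted p = 5.9e-06), short of the fold threshold. At 30 h Cdh1 fell by 2.06 ± 0.27 with RA, or 4.16-fold (adjusted p = 0.00179). The difference was -2.47 without RA 30 h replicate 2, the library with 269 CPM, and the call was lost without untreated replicate 1 (adjusted p = 0.0105) or replicate 2 (adjusted p = 0.0121). Cdh1 was also called lower at 42 h (-1.53 ± 0.09) and 54 h (-1.24 ± 0.10). At 66 and 78 h the differences were -0.86 and -0.56. The difference narrowed in this stretch while untreated Cdh1 went from 499 ± 60.3 CPM (SD, n = 3) at 42 h to 234 ± 24.5 at 78 h, and the 12 RA-treated libraries from 42 h on ranged from 138 to 193 CPM.

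The order of the 15 Cdh1 means began with untreated 8 h, untreated 30 h, untreated 18 h and day 2, between 732 and 750 CPM, and these did not differ beyond their spread. It ended with RA 30, 42, 66, 54 and 78 h, between 180 and 159 CPM, each of which overlapped its neighbour in the order. Of the 14 pairs of neighbours, 3 were apart: untreated 42 h above RA 18 h, untreated 54 h above untreated 66 h, and untreated 66 h above untreated 78 h. The lowest untreated library, 214 CPM at 78 h, stood below the highest RA library of 30 h and above every RA library from 42 h on.

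Epcam, which is thought to loosen cadherin junctions and is known as a direct partner of claudin-7, had the same order of arms at every hour. Its day 2 libraries were at 293, 296 and 306 CPM. At 18 h untreated organoids had 299, 290 and 300 CPM and RA-treated ones 190, 210 and 202 CPM. At 30 h the values were 281, 281 and 260 CPM without RA and 112, 138 and 106 CPM with RA. The libraries of the arms did not overlap at any of the 7 hours.

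Epcam was called lower with RA at 4 hours. The log2 differences were -1.22 ± 0.12 at 30 h (edgeR adjusted p = 4.3e-04), -1.59 ± 0.08 at 42 h, -1.61 ± 0.15 at 54 h (3.06-fold) and -1.10 ± 0.09 at 66 h. Without untreated replicate 2 the 66 h difference was -0.99 and under the fold threshold. At 8, 18 and 78 h the differences were -0.40, -0.55 and -0.73, with adjusted p of 0.043, 1.8e-06 and 5.9e-04. Without RA 30 h replicate 2 the 30 h difference was -1.35, and without RA 8 h replicate 3 the 8 h difference was -0.30.

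The RA difference of Cdh1 was at its lowest at 30 h, and that of Epcam at 54 h, where it was within its error of the 42 h value, and whether these hours differ was not tested. Per kilobase Epcam stood below Cdh1 at day 2 and above it in RA-treated organoids at 30 h, at 54.0 ± 7.74 against 39.4 ± 16.8 CPM per kb. In RA-treated organoids at 42 h the means were 33.5 for Epcam and 38.0 CPM per kb for Cdh1, and at 78 h they were 29.5 and 34.8, with Epcam again the lower at each hour from 42 h on. Untreated 54 h organoids had 84.0 CPM per kb of each.

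Cdh2 (ENSMUSG00000024304, on the minus strand of chromosome 18), the main cadherin of the neural tube, was at 12.1, 11.6 and 14.1 CPM at day 2. At 18 h the untreated libraries had 20.4, 16.4 and 19.3 CPM and the RA-treated ones 21.5, 19.4 and 20.4 CPM. The arms overlapped at that hour, and the log2 difference was 0.14 ± 0.08 (edgeR adjusted p = 0.19). At 30 h the untreated libraries had 22.8, 22.0 and 21.4 CPM and the RA-treated ones 80.3, 75.5 and 75.6 CPM. The 3 RA libraries of 30 h were thus close together, including replicate 2, which stood apart in Cdh1.

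Cdh2 was called higher with RA at 30 h by 1.79 ± 0.09 on the log2 scale (adjusted p = 3.5e-05, and by 1.80 without RA replicate 2), at 42 h by 1.74 ± 0.18 and at 54 h by 1.18 ± 0.12. At 66 h the difference was 0.71 ± 0.08 and at 78 h 0.35 ± 0.10, when untreated libraries had 148, 164 and 186 CPM and RA-treated ones 182, 215 and 238 CPM, with overlap. RA-treated means lay between 195 and 211 CPM from 54 h on, while the untreated mean went from 89.8 ± 17.4 to 166 ± 19.2 CPM. At 8 h the log2 difference was -0.67 ± 0.26 (edgeR adjusted p = 0.14), and -0.41 without RA replicate 3. That library had 7.41 CPM, the lowest of the 6 libraries, against 15.8 CPM in RA replicate 2. The arms did not overlap at 8 h, with 19.6 to 22.1 CPM without RA and 7.41 to 15.8 CPM with RA.

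In the order of the 15 Cdh2 means, RA 78 h, RA 54 h and RA 66 h came first. Untreated 78 h, at 166 CPM, overlapped RA 42 h, at 161 CPM, and untreated 54 h, at 89.8 CPM, overlapped RA 30 h, at 77.2 CPM. Untreated 30 h, untreated 8 h, RA 18 h and untreated 18 h lay between 22.1 and 18.7 CPM and overlapped in turn. Over all 14 pairs of neighbours, 7 overlapped.

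The cadherin switch was followed as the ratio of Cdh2 to Cdh1 counts within each library, per kilobase of exon, which does not depend on library scaling. The ratio was 0.00982 ± 0.00140 at day 2 (SD, n = 3). Without RA it was 0.0145 ± 0.000510 at 18 h, 0.0170 ± 0.00146 at 30 h, 0.0549 ± 0.0193 at 42 h and 0.404 ± 0.0557 at 78 h. With RA it was 0.0289 ± 0.00448 at 18 h, 0.271 ± 0.0964 at 30 h, 0.527 ± 0.0826 at 42 h and 0.759 ± 0.144 at 78 h. The highest of the 45 libraries, an RA 78 h one, had a ratio of 0.910, so Cdh2 stayed below Cdh1 per kilobase in all 45. This rests on the division by annotated exon length. In raw counts Cdh2 exceeded Cdh1 in RA 42 h replicate 1 and in every RA library from 54 h on.

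**Figure D2:**
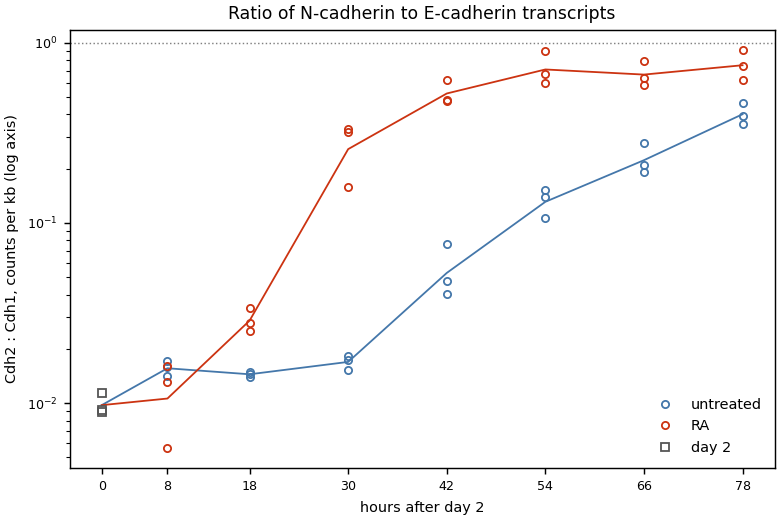
Ratio of Cdh2 to Cdh1 counts per kb of exon (log axis) against hours after day 2, with 1 symbol a library, lines through the means of the log2 ratios of 3 libraries, and a dotted line at a ratio of 1. The RA libraries lie above the untreated ones at every hour from 18 h, and all 45 lie under the dotted line.

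The RA and untreated libraries overlapped in this ratio at 8 h (difference of the mean log2 ratio -0.56 ± 0.47, SE, two-sided exact permutation p = 0.3). They did not overlap at any later hour, with an exact permutation p = 0.1 each, the smallest that 3 against 3 libraries allow. The log2 difference was 0.99 ± 0.13 at 18 h, or 1.98-fold, and 3.92 ± 0.35 at 30 h, or 15.1-fold. It was 3.31 ± 0.31 at 42 h, 2.44 ± 0.24 at 54 h, 1.58 ± 0.21 at 66 h and 0.90 ± 0.19 at 78 h. At 18 h Cdh2 overlapped between the arms and Cdh1 did not. The RA 30 h ratio lay between those of untreated organoids at 66 and 78 h, 0.226 and 0.404. Without RA 30 h replicate 2 the 30 h difference was 4.27.

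Against day 2, which the comparisons of both arms share, the switch was slower without RA. Untreated organoids at 18 h had 0 members called by edgeR or by DESeq2, with 2 (Cdh2 and Cdh3) at an unadjusted p under 0.05 by either tool, when 4.56% of all genes tested were called. At 42 h 4 members were called, all higher, against 21.8% of all genes: Cdh2 (1.96 ± 0.18), Cdh4 (1.14 ± 0.13), Cdh6 (3.72 ± 0.24) and Cdh11 (4.45 ± 0.39). At 78 h all 7 members tested were called, against 34.0% of all genes, and Cdh1 (-1.60 ± 0.07), Cdh3 (-1.49 ± 0.07) and Epcam (-1.43 ± 0.06) had joined as lower, with Cdh2 3.76 ± 0.09 above day 2. Cdh3 at 42 h was at -0.98, just short of the threshold, and passed it at -1.03 without untreated replicate 3.

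With RA, 3 members were called against day 2 at 18 h, when 20.2% of all genes were: Cdh3 lower (-1.67 ± 0.09), Cdh6 higher (3.51 ± 0.23) and Cdh8 higher. At 42 h 6 were called, against 32.0%, with Cdh1 at -2.05 ± 0.07, Epcam at -1.99 ± 0.07 and Cdh2 at 3.69 ± 0.10. At 78 h 7 were called, against 37.4%, with Cdh1 at -2.17 ± 0.06, Epcam at -2.17 ± 0.12 and Cdh2 at 4.09 ± 0.11. Cdh3 was the member not called at 78 h, at -0.36 ± 0.06. Day 2 libraries 1 and 2 carry earlier library numbers than all 78 h libraries. With day 2 replicate 3 alone, Cdh1 was at -1.54 without RA and -2.12 with RA, and Cdh2 at 3.60 and 3.92, with the lone day 2 library assumed to vary like the others.

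**Figure D3:**
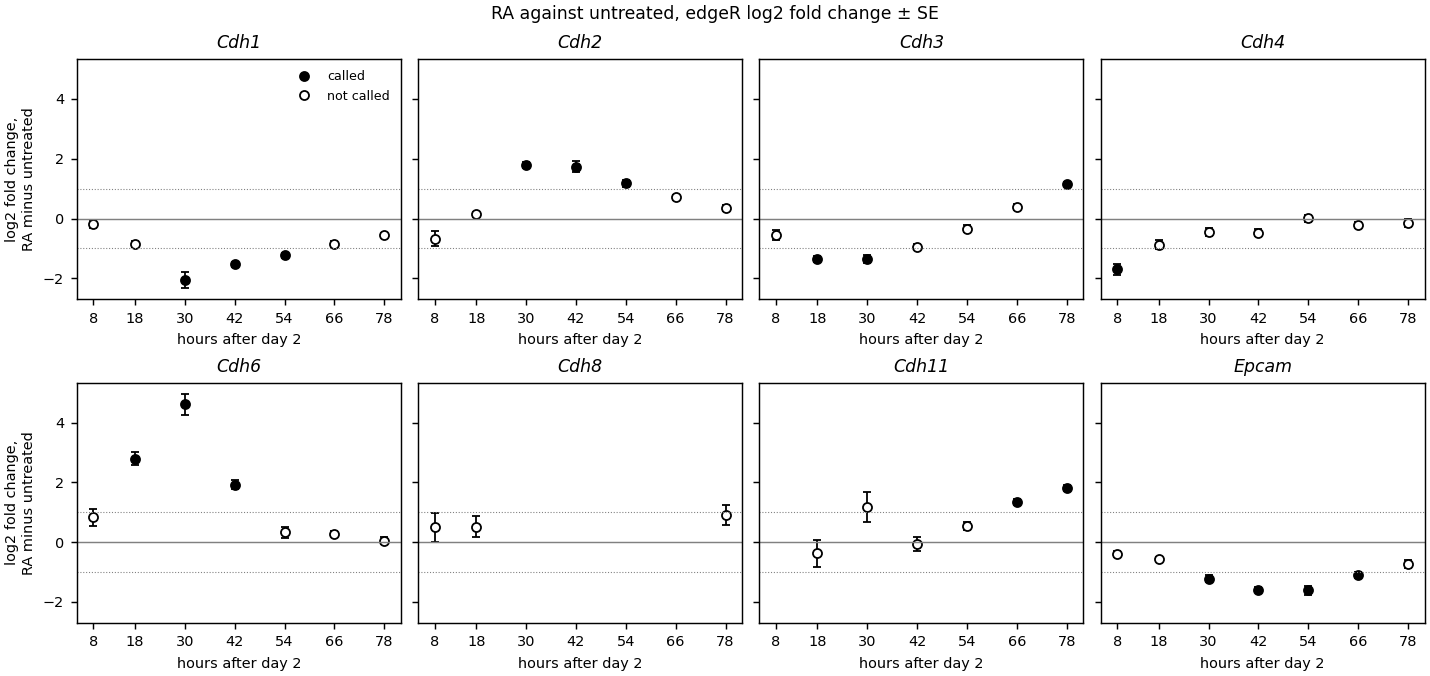
Log2 fold change of RA against untreated (vertical axis, edgeR, with SE bars) at each hour after day 2 for the 8 members, filled where called and open where not, with dotted lines at 1 and -1. Cdh1, Cdh2 and Cdh6 differ most at 30 h, Epcam at 54 h, and Cdh3 and Cdh11 end above 1 at 78 h, and a missing point was not tested.

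Cdh3, the P-cadherin that neighbours Cdh1 and is known from placenta and basal epithelia, reversed its RA difference. Day 2 libraries had 40.5, 40.8 and 39.4 CPM, above those of every other condition. At 18 h the untreated libraries had 32.8, 27.1 and 36.6 CPM and the RA-treated ones 10.7, 14.01 and 12.9 CPM, and at 78 h they had 13.6, 14.7 and 13.4 CPM and 30.9, 31.3 and 29.8 CPM. The arms were apart at both hours, in opposite directions. Cdh3 fell by 1.35 ± 0.12 with RA at 18 h (edgeR adjusted p = 8.2e-07), fell by 1.35 ± 0.13 at 30 h (-1.31 without RA replicate 2), and was at -0.95 ± 0.09 at 42 h, a value that passed the fold threshold at -1.01 without untreated replicate 2. The difference was -0.34 at 54 h and 0.39 at 66 h, neither called, and at 78 h Cdh3 rose by 1.14 ± 0.07 (adjusted p = 2.1e-07).

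An interaction term over 12 libraries compared the effect of RA at 78 h with that at 18 h, with an adjusted p under 0.01 and no fold threshold. It was called for 3 members, Cdh3, Cdh6 and Cdh11, against 27.9% of all genes tested. For Cdh3 the RA effect was 2.47 ± 0.15 higher at 78 h (adjusted p = 2.2e-09). For Cdh1, its neighbour, the same term was 0.27 ± 0.14 (adjusted p = 0.13). At 78 h, Cdh3 rose and Cdh1 was at -0.56, so these adjacent genes stood in opposite directions between the arms at that hour.

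Cdh4, the R-cadherin of retina and brain, was called at 1 hour. At 8 h the untreated libraries had 5.42, 5.09 and 5.49 CPM and the RA-treated ones 1.75, 1.73 and 1.36 CPM, the lowest of any condition. It fell by 1.70 ± 0.19 with RA (3.25-fold, edgeR adjusted p = 0.00232). The value stayed between -1.76 and -1.60 when any 1 library was left out, and -1.60 without RA replicate 3 was still called, but the call was lost without any other of the 6 libraries, with adjusted p of 0.0114 to 0.0243. By 18 h the difference was -0.88 ± 0.15, by 30 h -0.46 and by 54 h 0.01. Both arms ended higher than day 2, at 19.8 ± 1.83 CPM without RA and 18.0 ± 4.29 CPM with RA at 78 h, against 5.81 ± 0.924 CPM.

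Cdh6, a type II cadherin of the hindbrain and the premigratory neural crest, had few counts at day 2, 17, 10 and 10, or 0.714, 0.503 and 0.422 CPM. At 8 h RA-treated libraries had 1.33, 1.73 and 1.19 CPM beside 0.895, 0.706 and 0.826 CPM, and at 18 h 7.12, 6.33 and 5.37 CPM beside 0.947, 0.583 and 1.11 CPM. At 30 h the untreated libraries were still at 0.712, 0.855 and 0.866 CPM and the RA-treated ones at 13.3, 29.2 and 17.2 CPM. RA replicate 2 was the highest of these, as it was for Cdh1. Cdh6 rose with RA by 2.79 ± 0.21 at 18 h (edgeR adjusted p = 2.6e-07), by 4.61 ± 0.36 at 30 h (adjusted p = 1.8e-04, and by 4.23 without RA replicate 2) and by 1.91 ± 0.15 at 42 h.

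At later hours Cdh6 in the arms came together. The differences were 0.32 ± 0.20, 0.28 ± 0.08 and 0.04 ± 0.11 at 54, 66 and 78 h, and the 78 h value changed sign when single libraries were left out. The 78 h libraries had 20.7, 18.9 and 18.1 CPM without RA and 22.6, 20.4 and 16.2 CPM with RA. The RA effect was 2.77 lower at 78 h than at 18 h on the log2 scale (SE 0.25, adjusted p = 2.2e-07). The highest Cdh6 mean was that of RA 42 h, 26.9 ± 4.88 CPM, which overlapped RA 30 h, and the ratio of the highest to the lowest mean, 49.1, was the widest of the 6 members with over 3 counts in every library.

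Cdh11, a type II cadherin typical of mesenchyme and also found in neural tissue, was near its counting limit early, with 8, 5 and 2 counts at day 2. At 42 h it was at 3.64, 6.81 and 4.06 CPM without RA and 4.33, 4.30 and 5.27 CPM with RA, a difference of -0.07 that turned to 0.25 without untreated replicate 2. At 78 h it was at 8.96, 11.3 and 11.1 CPM without RA and 35.0, 36.0 and 40.3 CPM with RA. The arms overlapped at 42 h and were far apart at 78 h. Cdh11 rose with RA by 1.35 ± 0.11 at 66 h (edgeR adjusted p = 5.9e-06) and by 1.82 ± 0.09 at 78 h (adjusted p = 5.6e-08), with 0.55 ± 0.13 at 54 h below the fold threshold. Its RA effect was 2.15 ± 0.42 higher at 78 h than at 18 h (adjusted p = 6.3e-04), where 18 h libraries held 4 to 16 counts.

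In the order of the Cdh11 means, RA 78 h (37.1 CPM), RA 66 h (23.8 CPM) and RA 54 h (12.2 CPM) were each apart from the next. Untreated 78, 66 and 54 h followed, from 10.5 to 8.14 CPM, and overlapped in turn. RA and untreated organoids of 42 h overlapped, and so did each pair of neighbours among the conditions up to 18 h and untreated 30 h, although untreated 18 h lay wholly above day 2.

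Cdh8, a type II cadherin of the brain, held 388 counts over the 45 libraries and had 3 or fewer in 7 of them. Its highest library, RA 8 h replicate 2, had 24 counts, or 1.09 CPM, and its group ranges overlapped for all 14 neighbours in the order of means. It passed the filter in 3 comparisons of RA with untreated, where the log2 differences were 0.49, 0.52 and 0.92 at 8, 18 and 78 h (edgeR adjusted p = 0.56, 0.23 and 0.041). Against day 2 (5, 1 and 4 counts) it was called higher in RA at 18 h (12, 14 and 11 counts, 1.80 ± 0.52, adjusted p = 0.00535) and at 78 h (16, 18 and 14 counts, 1.80 ± 0.48, adjusted p = 0.00447). DESeq2 called neither, with adjusted p of 0.0471 and 0.0401. At 18 h the edgeR call was lost without any 1 RA library or without day 2 replicate 2 or 3 (adjusted p 0.0119 to 0.0334), and at 78 h without RA replicate 2 or day 2 replicate 2 or 3 (adjusted p 0.0134 to 0.0241).

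Among the 16 other cadherin genes listed, 7 to 10 were tested per hour, and RA called at most 2 higher and 4 lower, at 54 h. Cdh5, the vascular endothelial cadherin VE-cadherin, was at 0.746 CPM without RA and 23.9 CPM with RA at 78 h and rose by 4.96 ± 0.16 (edgeR adjusted p = 1.9e-09). It also rose by 2.59 at 54 h and 3.65 at 66 h. Cdh9 fell with RA at 5 hours, with a log2 difference of -3.50 ± 0.37 at 54 h, and Cdh13, the membrane-anchored T-cadherin, fell at 5 hours, with -2.79 ± 0.48 at 30 h. In both of these comparisons the gene averaged under 1 CPM. Where the mean was at least 1 CPM, the largest called falls were of 3.13 for Cdh9 and 2.20 for Cdh13. Cdh20 fell by 2.66 ± 0.26 at 54 h.

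The 7 tested catenins, which hold cadherin tails to actin, moved little between the arms. Their RA differences at 30 h ran from -0.38 to 0.33, and at 78 h from -0.29 to 0.98, the highest being Jup, or plakoglobin, at 0.98 ± 0.06 (edgeR adjusted p = 3.6e-07), under the fold threshold. Jup was at -0.85 ± 0.09 at 18 h, so its values had the same signs as those of Cdh3 at both hours. Ctnnb1, the gene of beta-catenin, was at 1157 ± 23.6 CPM without RA and 1464 ± 74.7 CPM with RA at 30 h. Of the 5 genes listed for nectin junctions, Nectin4 was called at 3 hours, with -1.65 ± 0.24 at 54 h. Among 6 listed Epcam partners and relatives, Cldn7, the claudin that binds Epcam, fell with RA by 2.38 ± 0.48 at 30 h and by 1.40 ± 0.19 at 42 h and was at 0.06 at 78 h. Cldn1 rose at 6 of the 7 hours, by 3.33 ± 0.35 at 30 h, from 0.266 to 2.88 CPM, and St14, the gene of the protease matriptase, fell by 1.09 at 54 h.

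Of 8 listed transcriptional repressors of Cdh1, Zeb1 and Zeb2 were called higher with RA at 18 and 30 h. Zeb1 was at 14.4 ± 1.51 CPM without RA and 29.9 ± 1.44 CPM with RA at 18 h and rose by 1.05 ± 0.08 (edgeR adjusted p = 3.2e-07), then by 1.58 ± 0.27 at 30 h and by 1.43 ± 0.10 at 42 h. Zeb2 rose by 1.15 ± 0.09 at 18 h and by 1.43 ± 0.26 at 30 h, but at 78 h was at 106 ± 8.10 CPM without RA and 69.2 ± 6.75 CPM with RA, a difference of -0.62. Snai1 was called later, at 54, 66 and 78 h, with 1.79 ± 0.17 at 78 h, and Snai2 at 78 h, with 1.04. The median of the 8 was 0.93 at 30 h, beside 0.04 over all genes tested.

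Of 7 listed regulators of epithelial genes, Grhl2, a grainyhead factor that activates Cdh1 and Epcam in epithelia, was called lower with RA at 6 hours from 8 h on. It was at 140 ± 6.28 CPM without RA and 45.0 ± 10.9 CPM with RA at 8 h, when Cdh1 and Epcam were not called, and fell by 1.62 ± 0.17 (edgeR adjusted p = 0.00190). Grhl3, another grainyhead factor, was called higher at that hour, by 1.05 ± 0.12 (adjusted p = 0.00258), from 18.0 to 36.9 CPM. Grhl2 fell by 2.65 ± 0.45 at 30 h and was at -0.63 at 78 h. Esrp1, an epithelial splicing factor, fell by 1.77 ± 0.32 at 30 h and 1.61 ± 0.17 at 54 h. Ovol2 and Esrp2 were called higher at 78 h, by 1.17 ± 0.20 and 1.33 ± 0.14. Against day 2, all 7 regulators were called lower in untreated organoids at 78 h and 5 in RA-treated ones. Of all genes tested, 34.0% and 37.4% were called in these comparisons, in either direction. Whether these regulators have a part in the cadherin values was not tested.

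**Figure D4:**
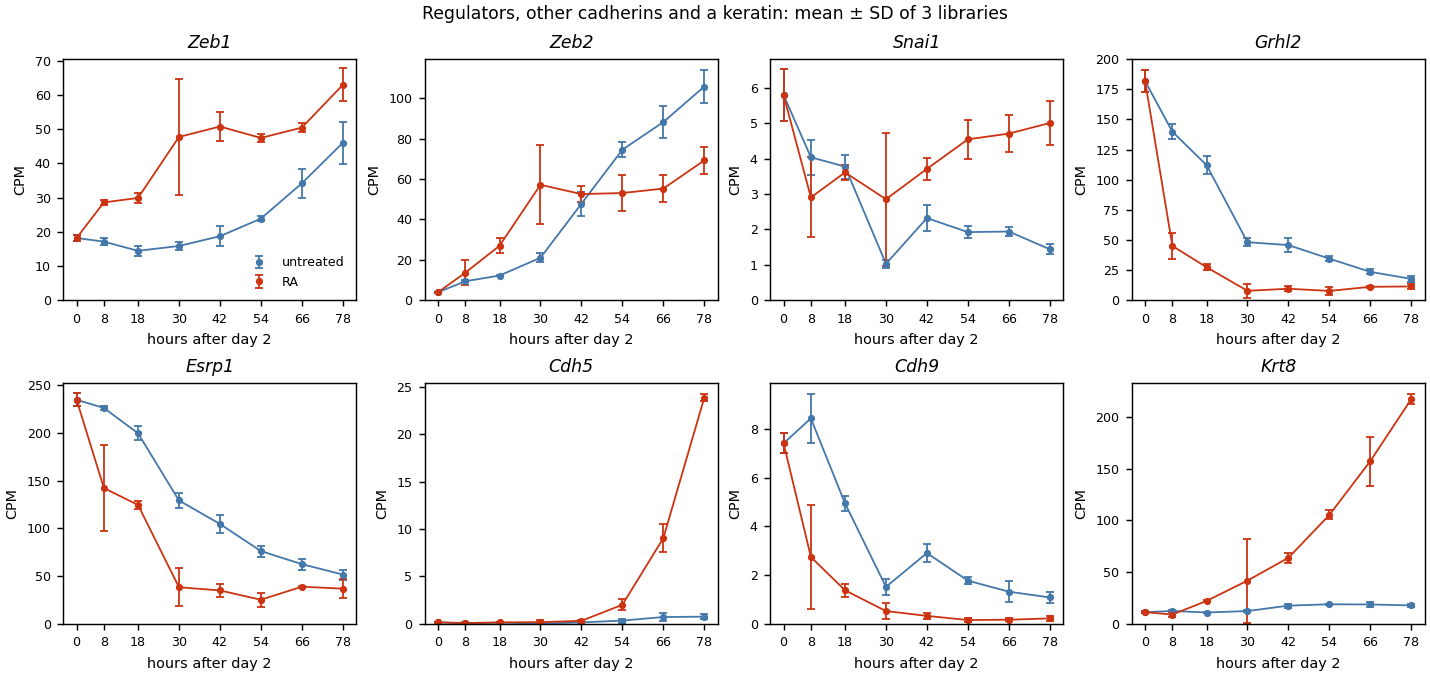
CPM (vertical axes from 0) of the repressors Zeb1, Zeb2 and Snai1, the epithelial regulators Grhl2 and Esrp1, the cadherins Cdh5 and Cdh9 and the keratin Krt8 against hours after day 2, as means ± SD of 3 libraries, untreated in blue and RA in red, with day 2 at 0 h in both lines. Zeb1 and Zeb2 climb first with RA, Grhl2 declines from 8 h, and Cdh5 and Krt8 climb late with RA, to 23.9 and 217 CPM.

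Markers of other cell types moved with the late RA values of Cdh3 and Cdh11. The summed level of the 8 non-neural epithelial genes was 60.9 to 71.1 CPM in untreated and 696 to 714 CPM in RA-treated libraries at 78 h, all 8 genes were called higher, and Krt8 was at 17.7 and 217 CPM. The median log2 difference of that list was 3.17 at 78 h, beside 0.00150 over all genes tested. At 18 h, when Cdh3 was lower with RA, the sum was 65.1 to 72.0 and 134 to 151 CPM, with 4 of the 7 genes tested called higher. Of 6 endoderm genes, Sox17, Foxa2 and Gata6 were called higher at 78 h, with sums of 2.75 to 3.08 and 19.8 to 23.1 CPM, and Afp and Ttr were at 0 in the untreated 78 h libraries. Of 8 neural crest and mesenchyme genes, Ednrb and Vim were called higher and Foxd3, Col1a1 and Col1a2 lower at 78 h. The sum of these 8 was 364 to 396 CPM in untreated and 771 to 951 CPM in RA-treated libraries, and the list's median log2 difference was 0.78. The part of these cell types in the results was not tested.

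Markers also moved with the early differences. The summed pluripotency genes were 1668 to 1816 CPM in untreated and 568 to 843 CPM in RA-treated libraries at 30 h, with Pou5f1, Tdgf1 and Utf1 called lower of 8. Of the 8 neural progenitor genes Sox1, Pax6 and Hes5 were called higher at 18 and 30 h, with Pax6 at 11.02 and 104 CPM at 30 h. Of the 8 neural crest and mesenchyme genes, Sox10, Ednrb, Pdgfra, Col1a1 and Col1a2 were called higher and Foxd3 lower at 18 h, and the same genes apart from Sox10 at 30 h, when Ednrb rose by 5.97 ± 0.22. Their sums were 132 to 148 and 85.9 to 92.1 CPM at 18 h, and 145 to 149 and 186 to 254 CPM at 30 h. Of the 6 endoderm genes, Sox17, Foxa2, Gata4 and Gata6 were called higher at 18 h, with sums of 2.58 to 3.02 and 16.0 to 18.6 CPM. At 30 h these 4 had edgeR adjusted p of 0.0106 to 0.0381, short of a call, with a median log2 difference of 3.99. The endoderm sums were then 0.712 to 0.916 CPM without RA and 4.58, 26.8 and 4.44 CPM with RA, highest in RA replicate 2. Of 6 neuron genes, Neurod1 was called lower at 18 and 30 h, and at 78 h Tubb3, Dcx and Map2 were called higher and Stmn2 lower, at -1.90 ± 0.10. All 6 listed RA-responsive genes, among them Cyp26a1 and Rarb, were called higher with RA at 18 h and at 30 h. The part of cell composition in the cadherin differences was not tested.

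The genes whose pattern was most like a member's were sought over the 15 condition means of log2(CPM + 1), among 10804 other protein-coding genes with a mean of at least 5 CPM. For Cdh1 these were Nmd3 (Pearson r = 0.988), Ddx10, Scaf4, Thada and Zc3h8, for Cdh2 Mex3a (r = 0.995), Tox3, Irx3, Tspan3 and Ubtd2, and for Epcam Tmem54 (r = 0.992), Fam49a, Zscan10, Kdm4c and Slc7a7. Cdh1 and Epcam had r = 0.968, and Epcam ranked 44 in likeness to Cdh1. Cdh1 and its neighbour Cdh3 had r = 0.617, rank 3129, and Cdh2 and Cdh1 r = -0.915. Cdh6 and Cdh11 had r = 0.923 and 0.922 with Cdh2. The points share day 2, the time course and the library scaling, so these values are descriptions.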

How the data were processed

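Raw counts per gene for 45 libraries were used as the authors deposited them. Per the study's methods, poly(A) RNA was made into strand-marking libraries. By the same methods, single-end reads were trimmed (Trim Galore 0.5.0), filtered for abundant sequences (Bowtie2 2.3.4.1), aligned to GRCm38 with STAR and summarized per gene with featureCounts (Subread 1.6.2). The strand and multi-mapping settings of the counting are not given in the sources used here, so reads shared between similar genes could have been dropped or split. Columns were matched to samples by the library number in the titles.

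The members and gene lists were chosen with earlier results of these data known. Of 54532 genes, 54409 matched a symbol in GENCODE M21 (GRCm38), a release other than the one the authors counted on.

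For each comparison the 6 libraries it names were fitted with edgeR 4.0.16 in R 4.3.3 (TMM, filterByExpr with a minimum count of 10 and a minimum total of 15, glmQLFit, glmQLFTest), and the interaction on 12. Adjusted p-values follow Benjamini and Hochberg over all genes tested. The standard error is the log2 fold change divided by the square root of F. The ratio of Cdh2 to Cdh1 used a pseudocount of 0.5 counts and a two-sided exact permutation test over every split of the libraries (numpy 2.4.6). The script was tested on simulated counts.

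Depth was 17298632 to 39688686 counts per library. Replicate pairs (45) differed by more than sampling noise (chi-square per gene 1.97 to 110). The highest values were 110 and 87.7, for RA 30 h replicate 2 against replicates 3 and 1. RA 8 h replicate 3 followed, at 44.4 and 41.5 against replicates 1 and 2. All other pairs were at 14.8 or less. Each of these high pairs joins a library with low Y-linked transcripts to one with higher ones. The p-values measure the spread between these libraries, which at 8 and 30 h includes this split. Same-numbered libraries of an hour were not correlated as pairs would be (21 correlations of -0.315 to 0.434, median 0.048, all over 0.1 at 1 of 7 hours), and no label ties them, so the fits have no block.

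Named genes were the 8 members, from each of 14 lists at most 4 genes called in at least 1 RA comparison with a mean of at least 1 CPM, by the size of their change, and the 5 genes most like Cdh1, Cdh2 and Epcam. Genes outside this rule (Jup, Ctnnb1, Tubb3, Grhl3, Vim, Col1a1, Sox10 and the genes that define the marker lists) were named after their values were seen. Alternatives were RLE size factors, library totals, no filter, one fit of all libraries, a replicate block, DESeq2 1.42.0, another threshold, a pseudocount of 5 and leaving out each library; restricting to earlier or later library numbers was added after seeing the data.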

Additional observations from a re-analysis of the deposited data

Results flagged for a closer look

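The RA effect of 3 members differed between 78 h and 18 h by the interaction term in edgeR. For Cdh3 the effect was 2.47 higher at 78 h on the log2 scale (adjusted p = 2.2e-09), from -1.35 to 1.14, and all 3 RA libraries were below the untreated ones at 18 h and above them at 78 h. For Cdh6 it was -2.77 (adjusted p = 2.2e-07), from 2.79 to 0.04, with overlapping arms at 78 h. For Cdh11 it was 2.15 (adjusted p = 6.3e-04), from -0.38 to 1.82, with 4 to 16 counts a library at 18 h. Over all genes tested, 27.9% had such a difference.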

How the results depend on the processing

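Of 113 summary values under another setting with every library kept or a series of libraries dropped, 103 were judged unchanged. Of 132 with 1 library left out, 126 were. Counts of members were judged unchanged within 1.5 times. The RA difference of the Cdh2 to Cdh1 ratio was judged by its sign alone, whatever its size. With 1 library left out, that difference at 8 h ranged from -0.86 to -0.10. Of the values for single genes, including the likeness lists, 609 of 631 and 622 of 654 were unchanged. For a log2 fold change this meant the same sign and the same call, whatever its size. Under an adjusted p under 0.05 with no minimum fold change, edgeR called 2 members at 8 h, 5 at 18 h, 5 at 54 h, 6 at 66 h and 6 at 78 h with RA against untreated. Against day 2 the same threshold called 2 in untreated organoids at 18 h, 7 at 42 h and 7 in RA-treated ones at 18 h. The shares of all genes given above belong to the stricter threshold. These counts therefore describe the setting and are no result about the members. With a replicate block 0 members were called at 8 h (Cdh4 at -1.71, adjusted p = 0.021) and 2 in RA at 18 h and 6 in RA at 78 h against day 2, where Cdh8 was lost, and no other member's call changed. Leaving out single libraries gave 0 to 1 members called at 8 h, 4 to 5 at 30 h and at 42 h, and 1 to 2 at 66 h. With no filter on low counts 5 members differed in RA effect between 78 h and 18 h, Cdh1 (0.31) and Cdh4 (0.75) added, and DESeq2 added Cdh4 (0.76). The one fit of all libraries called Cdh11 at 30 h (1.15, adjusted p = 0.0076), Cdh3 in untreated organoids at 42 h (-1.02) and Cdh4 between 78 h and 18 h (0.75), and lost Cdh8 in RA at 18 and 78 h (adjusted p = 0.017 and 0.013). Chosen after seeing the data, the earlier library numbers alone, with 1 RA library assumed to vary like the others, called 5 members at 30 h (Cdh1 at -2.45, Cdh2 1.85, Cdh6 4.03), and the later ones alone lost Cdh8 in RA at 78 h (1.603, adjusted p = 0.070). The causes were not tested.

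Values near 0 changed sign. Cdh4 with RA at 54 h was -0.0021 with RLE size factors and -0.10 to 0.080 with 1 library left out. Leave-one-out ranges were -0.24 to 0.25 for Cdh11 at 42 h, -0.34 to 0.0048 for Cdh4 at 78 h and -0.074 to 0.17 for Cdh6 at 78 h. For untreated 18 h against day 2, Cdh1 ranged from -0.030 to 0.13 and Cdh4 from -0.11 to 0.11, Cdh4 was 0.055 with library totals, 0.0022 with no filter and 0.0069 with a replicate block, and Epcam was -0.0069 in the one fit of all libraries. Of the 5 genes most like Cdh1 and Epcam, 1 and 3 were also among the 5 over the 45 libraries. Over all genes at 8 h, 285 calls became 537 with no filter, 565 with DESeq2, 125 with a replicate block and 809 in the one fit, which gave 2664 for 1406 at 30 h. Library totals moved the median of all genes at 18 h from 0.02 to 0.14 and at 30 h from 0.04 to 0.18.

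The interval of each difference rests on 3 libraries a group. The 30 h groups are mostly of libraries with low Y-linked transcripts, whose part was not tested, and 66 and 78 h carry only later library numbers, so these hours and that series cannot be told apart within time courses. Cdh8 and early Cdh11 lie near the limit that a few counts allow.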
